A study of Mus musculus with 10 samples.

Results

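The 41 collagen genes of the mouse were followed by their accessible chromatin in bone marrow stroma. They were taken by gene symbol, Col1a1 to Col28a1, from 21627 protein-coding genes of a RefSeq gene table, and an ATAC-seq peak was assigned to a collagen locus when its summit lay in the gene body or within 10 kb on either side. ATAC-seq uses a transposase that cuts open DNA, so a peak marks a stretch of accessible chromatin. The 10 libraries came from mice of strain C57BL/6J. The revitalized MSCs (rMSC, n = 3) were cultured stroma transduced together with Klf7, Ostf1, Xbp1, Irf3 and Irf7, and the control cultures (n = 3) were cultured stroma transduced with a control vector. Sorted Scf-GFP-positive marrow stroma had seeded either culture, in alpha-MEM with serum and FGF-basic. The freshly sorted, untransduced stroma lacked CD45, Ter119 and CD31 and was either Scf-GFP-positive (n = 2) or Scf-GFP-negative (n = 2). Scf-GFP reports stem cell factor, the product of Kitl, and so marks a class of niche cells and not every stromal cell. The labels name no separate animals or cultures for the replicates, and a p-value therefore reflects how far these libraries scatter, possibly for technical reasons alone.

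Collagens are trimeric proteins with a triple-helical part. Fibrillar collagens form the load-bearing fibrils of bone, cartilage and connective tissue, fibril-associated collagens decorate those fibrils, type IV collagens form the sheet of basement membranes, and transmembrane collagens sit in the plasma membrane. Marrow stroma, osteoblasts and chondrocytes are known producers of collagen, whereas mature blood cells make little of it.

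The deposited lists held 39936 to 78489 peaks per library, and sequencing depth is unknown because read counts were not used here. The names of the deposited peak lists carry AHY33MBCXX for replicate 1 of each group and AC99CPACXX for all other libraries. These were read here as flow cells, which the sample labels do not state. The strongest 39912 peaks of each library were compared, so a site missing from a list may still be open. Equal length did not level peak strength. The weakest peak kept had a −log10 q of 2.653 and 2.097 in the Scf-GFP-negative libraries and 4.268 to 5.802 in the other libraries. Markers of bone marrow mesenchymal stroma summed to 32 to 39 summits in rMSC, 46 to 54 in control cultures, 44 to 58 in Scf-GFP-positive and 7 to 10 in Scf-GFP-negative libraries. The same sums for 10 blood cell markers were 12 to 15 in rMSC, 12 to 14 in control cultures, 19 and 19 in Scf-GFP-positive and 39 and 52 in Scf-GFP-negative libraries. Osteoblast markers summed to 54 and 54 summits in Scf-GFP-positive libraries against 12 to 14 in Scf-GFP-negative ones, smooth muscle and pericyte markers to 20 to 25 against 8 to 12, and chondrocyte markers to 21 and 21 against 42 to 58. Ptprc, which encodes the CD45 used to remove blood cells, had 0 summits in either Scf-GFP-positive library, against 5 in either Scf-GFP-negative one. Schwann cell markers summed to 17 and 15 in Scf-GFP-positive against 20 and 34 in Scf-GFP-negative libraries. Endothelial markers summed to 7 and 8 against 9 and 19, and to 12 to 15 in rMSC and 10 to 15 in control cultures. Of the 8 endothelial markers, 3 and 4 had a summit in Scf-GFP-negative libraries and 4 in either Scf-GFP-positive one. Cdh5, Kdr, Emcn and Tie1 were at 0 in both Scf-GFP-negative libraries. Of the 8 chondrocyte markers, 4 had a summit in each Scf-GFP-negative library. Sox9, Acan, Matn1 and Hapln1 were at 0 there, as in Scf-GFP-positive replicate 1. Collagen results that involve the Scf-GFP-negative libraries therefore stand beside weaker peaks and higher sums of blood, Schwann cell, some endothelial and some chondrocyte markers than in Scf-GFP-positive libraries. Mesenchymal, osteoblast and smooth muscle sums were low there, and the part of all these in the results was not tested. In bulk libraries, fewer cells of an open type cannot be told apart from less open chromatin in every cell.

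Collagen loci were sparse in peaks in Scf-GFP-negative stroma and alike in number in the other groups. Counted once each, the summits in collagen loci numbered 131, 149 and 141 in rMSC, 156, 146 and 150 in control cultures, 151 and 154 in Scf-GFP-positive and 56 and 41 in Scf-GFP-negative libraries. These were on average 0.351% of the list in rMSC, 0.378% in control cultures, 0.382% in Scf-GFP-positive and 0.121% in Scf-GFP-negative libraries. The Scf-GFP-negative libraries lay below every other library, while the rMSC and control ranges overlapped and the Scf-GFP-positive values lay inside the control range. At least 1 summit was present at 35 to 38 of the 41 loci in rMSC, 34 to 37 in control cultures, 33 and 33 in Scf-GFP-positive and 25 and 20 in Scf-GFP-negative libraries. By class, the 11 fibrillar loci summed to 33, 49 and 41 summits in rMSC, 61, 48 and 52 in control cultures, 54 and 58 in Scf-GFP-positive and 15 and 10 in Scf-GFP-negative libraries. The 4 transmembrane loci summed to 7, 9 and 9 in rMSC, 6, 6 and 7 in control cultures, 18 and 21 in Scf-GFP-positive and 7 and 6 in Scf-GFP-negative libraries, so here the Scf-GFP-positive libraries stood above all others. A locus can hold the promoter of a neighbour. Summits within 1 kb of another gene's start made up 4.70% to 5.67% of the collagen summits in rMSC, 4.49% to 4.79% in control cultures, 4.64% and 4.55% in Scf-GFP-positive and 17.9% and 19.5% in Scf-GFP-negative libraries.

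**Figure D1:**
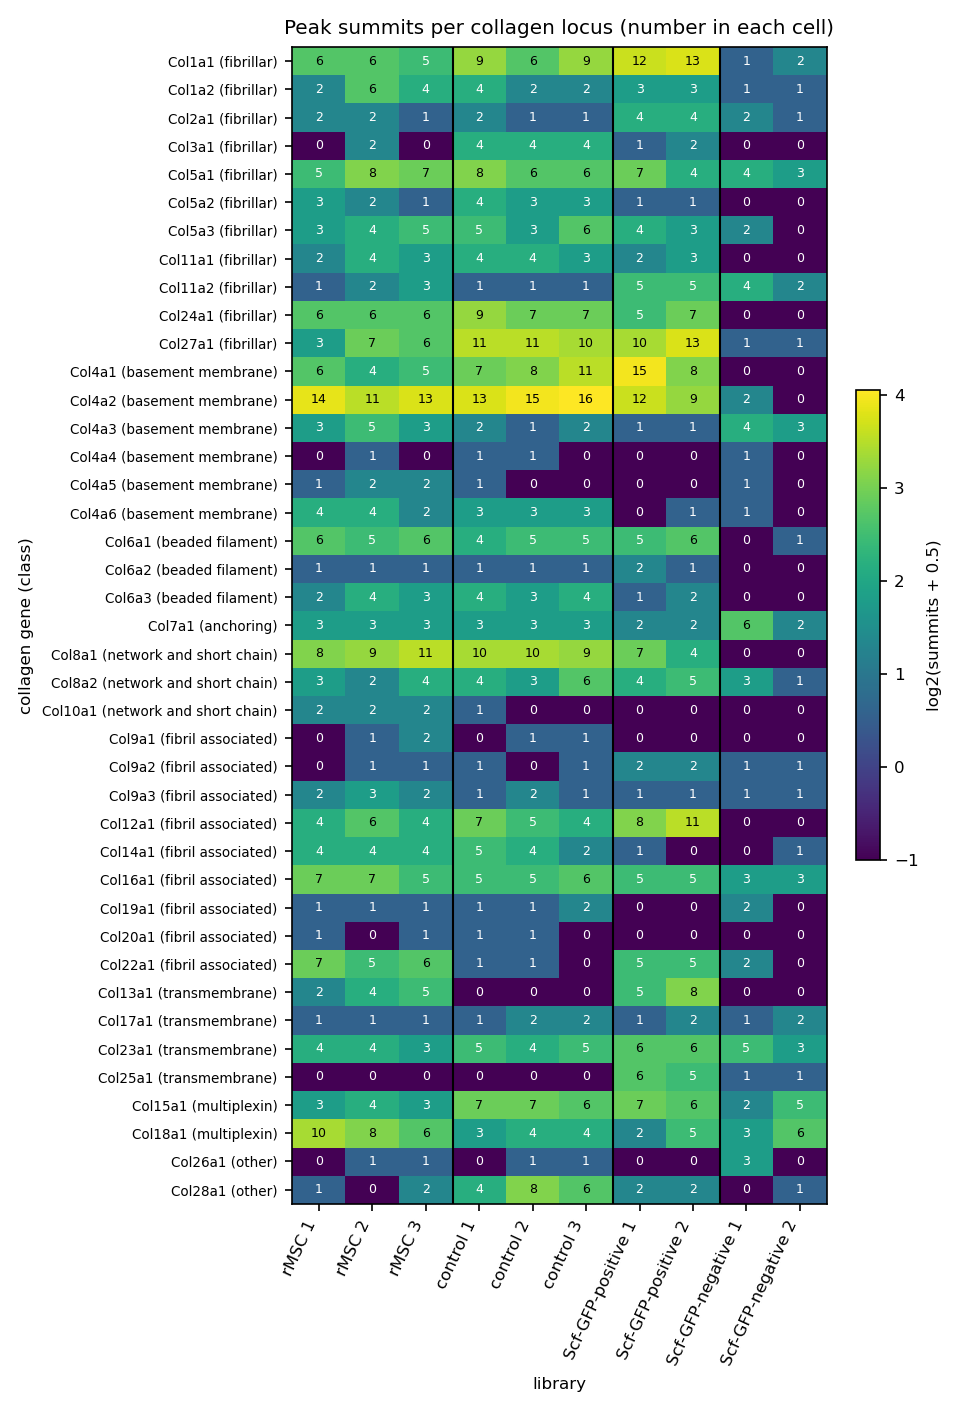
Number of peak summits at each of the 41 collagen loci (rows, grouped by class) in each of the 10 libraries (columns), with colour showing log2(summits + 0.5). The 2 Scf-GFP-negative columns at the right are mostly dark, which marks few summits, and Col13a1, Col22a1 and Col25a1 differ among the other 3 groups.

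Per length of locus (gene body plus both flanks), Col1a1 was the richest member, at 15.4 summits per 100 kb in rMSC, 21.7 in control cultures, 33.9 in Scf-GFP-positive and 4.07 in Scf-GFP-negative stroma (group means). Col1a1 encodes the main chain of type I collagen, the fibril of bone. Col6a1, a chain of the beaded filaments around cells, followed at 15.2, 12.5, 14.8 and 1.34 summits per 100 kb in rMSC, control, Scf-GFP-positive and Scf-GFP-negative stroma. Of the Col6a1 summits, 4.65% lay in the gene body and the rest in its flanks. Col8a2, Col16a1, Col4a2 and Col7a1 came next, at 5.85 to 7.36 summits per 100 kb over all libraries. Col7a1, which encodes the anchoring fibril collagen of skin, was the only one of these 6 with its highest density in Scf-GFP-negative stroma, at 7.80 summits per 100 kb against 3.90 in Scf-GFP-positive stroma. Its window also touches Uqcrc1, Ucn2 and Pfkfb4, and 23.3% of its summits lay in the Col7a1 body. A region at the start of Pfkfb4 was open in all 10 libraries. At the other end, Col4a4, Col19a1, Col25a1, Col4a5 and Col26a1 had 0.252 to 0.433 summits per 100 kb over all libraries.

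Peaks at the starts of collagen genes showed the same contrast. A start was counted as having a peak when a summit lay within 1 kb of a start in the RefSeq promoter table of GRCm38.p6, which matched 32 of the 41 genes. Col1a1, Col2a1, Col4a3, Col5a2, Col9a3, Col12a1, Col14a1, Col22a1 and Col26a1 have no entry. Of the 32, a start peak was present at 13, 15 and 15 genes in rMSC, 16, 15 and 15 in control cultures, 19 and 17 in Scf-GFP-positive and 1 and 2 in Scf-GFP-negative libraries. Of all 17273 matched genes, 8961 to 9074 had a start peak in rMSC, 8859 to 9103 in control cultures, 9844 and 9814 in Scf-GFP-positive and 8630 and 8890 in Scf-GFP-negative libraries. Over all genes, Scf-GFP-negative replicate 2 lay inside the control range and replicate 1 below every other library. Either lay below both Scf-GFP-positive libraries. These counts include the starts open in all 10 libraries, none of which belongs to a collagen gene. They therefore do not show how far weaker peaks lowered the collagen count in Scf-GFP-negative stroma, which was not tested. In 14 of the 32 genes both Scf-GFP-positive libraries and neither Scf-GFP-negative library had a start peak, a pattern found at 5.38% of all genes. They were Col4a1, Col4a2, Col5a1, Col5a3, Col6a1, Col6a2, Col8a1, Col11a1, Col11a2, Col13a1, Col15a1, Col16a1, Col18a1 and Col23a1. The reverse pattern held at 0 of 32 collagen genes and 0.718% of all genes. Where neither Scf-GFP-negative library had a start peak, every rMSC library had one at 12 of the 32 genes (3.87% of all genes) and every control culture at 13 (3.64%), and the reverse held at 0 for rMSC (2.16%) and 0 for control cultures (2.22%). No collagen gene had a start peak in all 10 libraries, as 40.8% of all genes did. Col4a4, Col4a6, Col9a1, Col17a1, Col19a1, Col20a1 and Col28a1 had none in any equal-size list (35.5% of all genes). In the full deposited lists Col4a4 had one in rMSC replicates 1 and 3, and Col19a1 in control replicate 3.

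**Figure D2:**
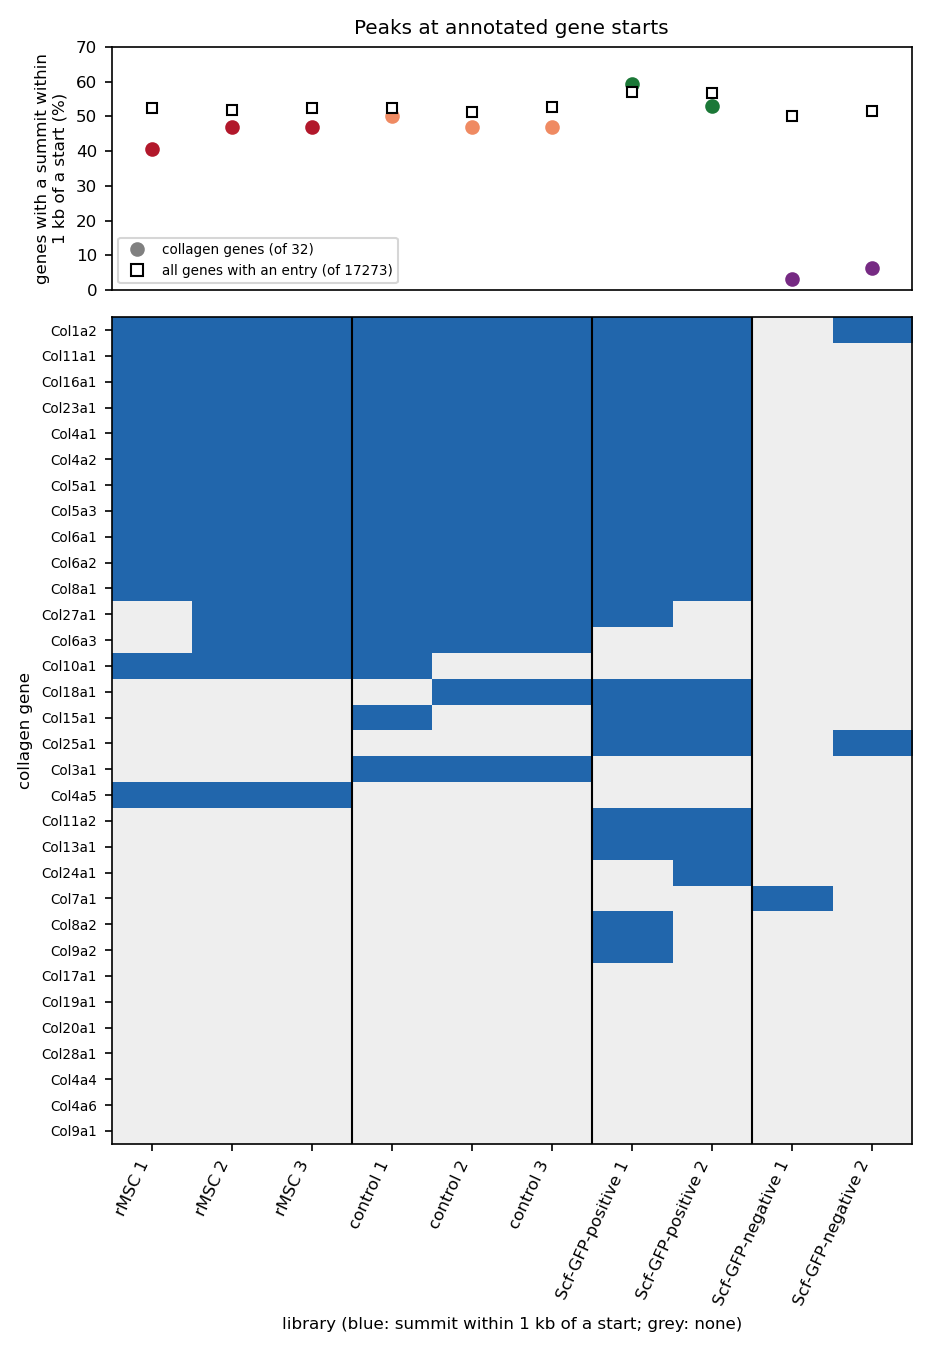
Upper panel, percent of genes with a summit within 1 kb of an annotated start in each library, for 32 collagen genes (filled circles) and 17273 genes (open squares). Lower panel, the 32 collagen genes by library, with blue for a start peak. Collagen genes reach 40.6% to 59.4% outside the Scf-GFP-negative libraries and 3.12% and 6.25% in them, while all genes lie between 8630 and 9844 of 17273 in every library.

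A core of 10 genes had a start peak in each of the 8 libraries outside Scf-GFP-negative stroma and in neither Scf-GFP-negative library. It comprised the fibrillar Col5a1, Col5a3 and Col11a1, the basement membrane pair Col4a1 and Col4a2, Col6a1 and Col6a2, Col8a1, Col16a1 and Col23a1. Col4a1 and Col4a2, with starts at 11312826 and 11312805 on chromosome 8, had the same start-peak fold in each library. Their common start peak was thus counted for both genes, here and in the counts of 32 genes above. Col1a2, the partner chain of Col1a1, had a start peak in these 8 libraries and in Scf-GFP-negative replicate 2. Its peak was stronger by the authors' fold than 81.0% to 88.3% of the list in rMSC, 74.2% to 96.0% in control cultures, 91.0% and 89.1% in Scf-GFP-positive libraries and 30.5% in that Scf-GFP-negative library. The remaining differences were between cultured and fresh stroma or between the cultures. Every control culture and neither Scf-GFP-positive library had a start peak at Col3a1 and Col6a3 (2 of 32, against 0.701% of all genes), and the reverse held at Col11a2, Col13a1 and Col25a1 (3 of 32, against 3.11%). All rMSC and no control libraries had one at Col4a5 (1 of 32, against 0.706%), and the reverse held at Col3a1 (1 of 32, against 0.695%). All rMSC and no Scf-GFP-positive libraries had one at Col4a5 and Col10a1 (2 of 32, against 1.05%), and the reverse held at Col11a2, Col13a1, Col15a1, Col18a1 and Col25a1 (5 of 32, against 3.65%). In the full deposited lists a start peak was also present at Col3a1 in rMSC replicate 2, at Col4a5 in Scf-GFP-positive replicate 2 and control replicates 2 and 3, at Col11a2 in rMSC replicate 2, at Col18a1 in rMSC replicates 2 and 3 and at Col25a1 in control replicate 3. Between rMSC and Scf-GFP-positive stroma, the Col11a2, Col18a1 and Col4a5 differences thus did not hold in the full lists. Col10a1 also had one in control replicate 3 of the full lists, beside control replicate 1. Col13a1 kept start peaks in the Scf-GFP-positive libraries alone.

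Of the genes named above whose start peak differed among rMSC, control and Scf-GFP-positive stroma, 6 are shown by sequence. Col6a3, Col15a1 and Col18a1 also differed and are not shown. The sequence runs from 250 bases before to 50 bases after the start, 5′ to 3′ on the gene's strand. It is from RefSeq GRCm38.p6, which has mm10 coordinates. Capitals mark matches on either strand to any of 9 short motifs, which are GGGCGG of the GC box, CCAAT of the box of that name, TATAAA of the TATA box, TGANTCA of AP-1, CACCC of Krüppel-like factors, GAAANNGAA of interferon regulatory factors, CCACGT of Xbp1, TGTGGT of Runx factors and CCCNNGGGA of Ebf factors. In the equal-size lists, the first 3 had a start peak in fresh Scf-GFP-positive stroma and in neither culture. Col3a1 had one in control cultures alone there, and Col4a5 and Col10a1 in every rMSC library. The stretches are chr10:61979059-61979358 on the minus strand for Col13a1, chr17:34038888-34039187 on the plus strand for Col11a2, chr3:130180595-130180894 on the plus strand for Col25a1, chr1:45311288-45311587 on the plus strand for Col3a1, chrX:141475169-141475468 on the plus strand for Col4a5 and chr10:34389731-34390030 on the plus strand for Col10a1.
Col13a1: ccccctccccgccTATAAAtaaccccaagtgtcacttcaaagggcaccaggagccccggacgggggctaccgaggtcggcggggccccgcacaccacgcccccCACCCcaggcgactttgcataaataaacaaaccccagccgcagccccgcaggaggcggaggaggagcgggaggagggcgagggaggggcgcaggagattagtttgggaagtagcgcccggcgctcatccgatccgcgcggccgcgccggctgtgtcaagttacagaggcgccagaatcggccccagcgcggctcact
Col11a2: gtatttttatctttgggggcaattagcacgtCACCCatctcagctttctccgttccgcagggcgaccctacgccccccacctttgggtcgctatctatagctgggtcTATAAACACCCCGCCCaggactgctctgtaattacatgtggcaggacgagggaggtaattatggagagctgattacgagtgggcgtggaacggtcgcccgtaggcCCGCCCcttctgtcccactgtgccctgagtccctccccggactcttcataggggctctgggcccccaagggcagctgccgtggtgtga
Col25a1: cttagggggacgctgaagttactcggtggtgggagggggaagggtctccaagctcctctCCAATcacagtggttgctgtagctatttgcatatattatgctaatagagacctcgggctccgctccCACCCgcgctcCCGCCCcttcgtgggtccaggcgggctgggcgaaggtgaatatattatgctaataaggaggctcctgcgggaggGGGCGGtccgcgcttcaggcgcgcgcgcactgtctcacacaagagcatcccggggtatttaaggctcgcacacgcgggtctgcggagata
Col3a1: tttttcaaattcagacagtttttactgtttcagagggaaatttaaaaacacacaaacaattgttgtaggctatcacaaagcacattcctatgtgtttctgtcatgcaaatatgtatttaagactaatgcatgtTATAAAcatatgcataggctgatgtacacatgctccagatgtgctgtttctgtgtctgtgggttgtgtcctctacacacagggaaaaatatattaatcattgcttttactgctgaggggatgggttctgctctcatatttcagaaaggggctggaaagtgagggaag
Col4a5: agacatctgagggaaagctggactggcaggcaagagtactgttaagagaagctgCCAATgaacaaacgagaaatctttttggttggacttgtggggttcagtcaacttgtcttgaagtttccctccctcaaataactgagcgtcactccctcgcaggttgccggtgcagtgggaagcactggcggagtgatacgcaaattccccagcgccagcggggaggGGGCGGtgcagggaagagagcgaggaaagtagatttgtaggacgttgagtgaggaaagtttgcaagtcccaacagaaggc
Col10a1: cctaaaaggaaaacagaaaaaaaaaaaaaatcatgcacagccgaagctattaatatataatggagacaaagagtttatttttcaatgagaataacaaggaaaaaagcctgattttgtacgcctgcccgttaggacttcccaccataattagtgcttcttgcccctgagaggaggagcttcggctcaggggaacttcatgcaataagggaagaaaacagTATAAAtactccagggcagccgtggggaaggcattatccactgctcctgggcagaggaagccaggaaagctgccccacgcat

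The 6 promoters differed in composition. The G and C content was 68.0% at Col13a1, 60.0% at Col25a1, 59.0% at Col11a2, 52.7% at Col4a5, 44.3% at Col10a1 and 37.7% at Col3a1, beside a median of 59.7% over 35 collagen entries (some genes have more than 1) and 56.7% over 21044 entries of all genes. TATAAA began at position -32 relative to the start at Col10a1, -117 at Col3a1, -143 at Col11a2 and -237 at Col13a1. It was present in 14.3% of collagen and 12.7% of all entries. GGGCGG was present at Col11a2, Col25a1 and Col4a5, in 57.1% of collagen and 46.7% of all entries. CACCC was present at Col11a2, Col13a1 and Col25a1, in 77.1% of collagen and 59.8% of all entries. At Col11a2 the TATA box letters stand next to a CACCC match that overlaps a minus-strand match of the GC box. GAAANNGAA was at none of the 6, in 5.71% of collagen and 8.09% of all entries, and CCACGT was also at none, in 5.71% and 9.14%. CCAAT was in 34.3% of collagen and 38.5% of all entries, TGANTCA in 2.86% and 7.04%, TGTGGT in 8.57% and 14.8%, and CCCNNGGGA in 11.4% and 7.33%. These are matches of letters in this window, and nothing on a factor follows from their presence or absence.

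Scf-GFP-positive stroma had more summits than Scf-GFP-negative stroma at many collagen loci across classes. Of the 41 loci, 27 averaged 2 or more summits over the 10 libraries and entered the test, a limma fit of log2(summits + 0.5) over 9148 loci and all 4 groups. At a Benjamini-Hochberg adjusted p under 0.05, 13 of the 27 were higher, where 13.8% of all tested loci were, and 1 was lower, where 17.5% of all tested loci were. The median log2 change was 1.53 over the 27 collagen loci and -0.23 over all tested loci. The 27 passed the filter partly through the groups in which they are high, so these shares do not describe all 41.

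Among fibrillar collagens, Col1a1 (gene 12842, chromosome 11, 94936224 to 94953042) held 12 and 13 summits in the Scf-GFP-positive libraries, against 1 and 2 in Scf-GFP-negative libraries. The groups lay far apart, a log2 change of 2.75 ± 0.28 (SE, limma adjusted p = 0.000506). Col27a1, a collagen known from growth plate cartilage (chromosome 4, 63214009 to 63334991), held 10 and 13 summits in the Scf-GFP-positive against 1 and 1 in Scf-GFP-negative libraries (log2 2.99 ± 0.33, limma adjusted p = 0.0008). Col24a1, a minor fibrillar collagen known from bone, had 5 and 7 summits in Scf-GFP-positive libraries and 0 in both Scf-GFP-negative ones (limma adjusted p = 2.76e-05). Col11a1, a cartilage fibril chain, had 2 and 3 in Scf-GFP-positive libraries and 0 in both Scf-GFP-negative ones (limma adjusted p = 0.000914). These 4 loci separated the groups without overlap, and those with no summit in one group are given without a fold, which would rest on the value added before the logarithm. Col2a1, the main cartilage collagen, had 4 and 4 summits in Scf-GFP-positive against 2 and 1 in Scf-GFP-negative libraries (log2 1.22 ± 0.38, limma adjusted p = 0.045). The Col2a1 call was lost without Scf-GFP-negative replicate 2, at an adjusted p of 0.202. Col1a2, with 3 and 3 against 1 and 1 summits, did not pass (log2 1.22 ± 0.45, limma adjusted p = 0.0749), nor did Col5a1, Col5a3 and Col11a2.

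Both main basement membrane chains were higher in Scf-GFP-positive stroma. Col4a1 (chromosome 8, 11198423 to 11312889) held 15 and 8 summits in Scf-GFP-positive libraries and 0 in both Scf-GFP-negative libraries (limma adjusted p = 0.000105). Its neighbour Col4a2 (chromosome 8, 11312805 to 11449287) held 12 and 9 in Scf-GFP-positive against 2 and 0 in Scf-GFP-negative libraries (log2 3.28 ± 0.62, limma adjusted p = 0.00745). The pair starts head to head and its annotated bodies overlap, and 11 summits over all libraries fell in both loci and were counted in each. Col4a3, a chain of kidney and lung basement membranes, was the single member lower in Scf-GFP-positive stroma, at 1 and 1 summits against 4 and 3 in Scf-GFP-negative libraries (log2 -1.40 ± 0.32, limma adjusted p = 0.0153). Most of its Scf-GFP-negative summits were not in the gene. The Col4a3 body itself held 0 and 0 summits in Scf-GFP-positive and 1 and 1 in Scf-GFP-negative libraries, and the flank holds the start of Mff, whose region was open in all 10 libraries. With the gene body alone or with flanks of 2 kb Col4a3 fell under the filter and was not tested. The Col4a3 call was also lost without Scf-GFP-negative replicate 1 (adjusted p = 0.0717), Scf-GFP-positive replicate 1 (0.0634) or Scf-GFP-positive replicate 2 (0.064).

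Of the remaining classes, the network collagen Col8a1, known from vessel walls and the cornea, had 7 and 4 summits in Scf-GFP-positive libraries and 0 in both Scf-GFP-negative ones (limma adjusted p = 9.27e-05). Col12a1, a fibril-associated collagen of tendon and bone surface, had 8 and 11 in Scf-GFP-positive libraries and 0 in both Scf-GFP-negative ones (limma adjusted p = 7.66e-05). Col13a1, a transmembrane collagen known from the neuromuscular junction and bone, had 5 and 8 in Scf-GFP-positive libraries and 0 in both Scf-GFP-negative ones (limma adjusted p = 0.000655). The zeros are those of the equal-size lists, and the full lists held 1 summit each at Col12a1 and Col13a1 in Scf-GFP-negative replicate 1. Col6a1 had 5 and 6 summits in Scf-GFP-positive against 0 and 1 in Scf-GFP-negative libraries (log2 2.79 ± 0.44, limma adjusted p = 0.00344). Col6a3, another chain of the same filament, had 1 and 2 against 0 and 0 (limma adjusted p = 0.00471). The Col6a3 call rests on these few summits and was lost with a −log10 q of at least 5. Col16a1, a fibril-associated collagen, had 5 and 5 against 3 and 3 (log2 0.65 ± 0.18, limma adjusted p = 0.0296). The Col16a1 difference was small. It was lost without either Scf-GFP-negative library (adjusted p = 0.0715 without replicate 1 and 0.077 without replicate 2) or either Scf-GFP-positive library (0.0893 without replicate 1 and 0.09 without replicate 2). Col7a1 and Col18a1 had 2 and 2, and 2 and 5, summits in Scf-GFP-positive libraries against 6 and 2, and 3 and 6, in Scf-GFP-negative libraries, and the groups overlapped at both. With only these 2 groups in the fit, Col1a1, Col2a1, Col4a2, Col6a1, Col6a3 and Col4a3 were not called.

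**Figure D3:**
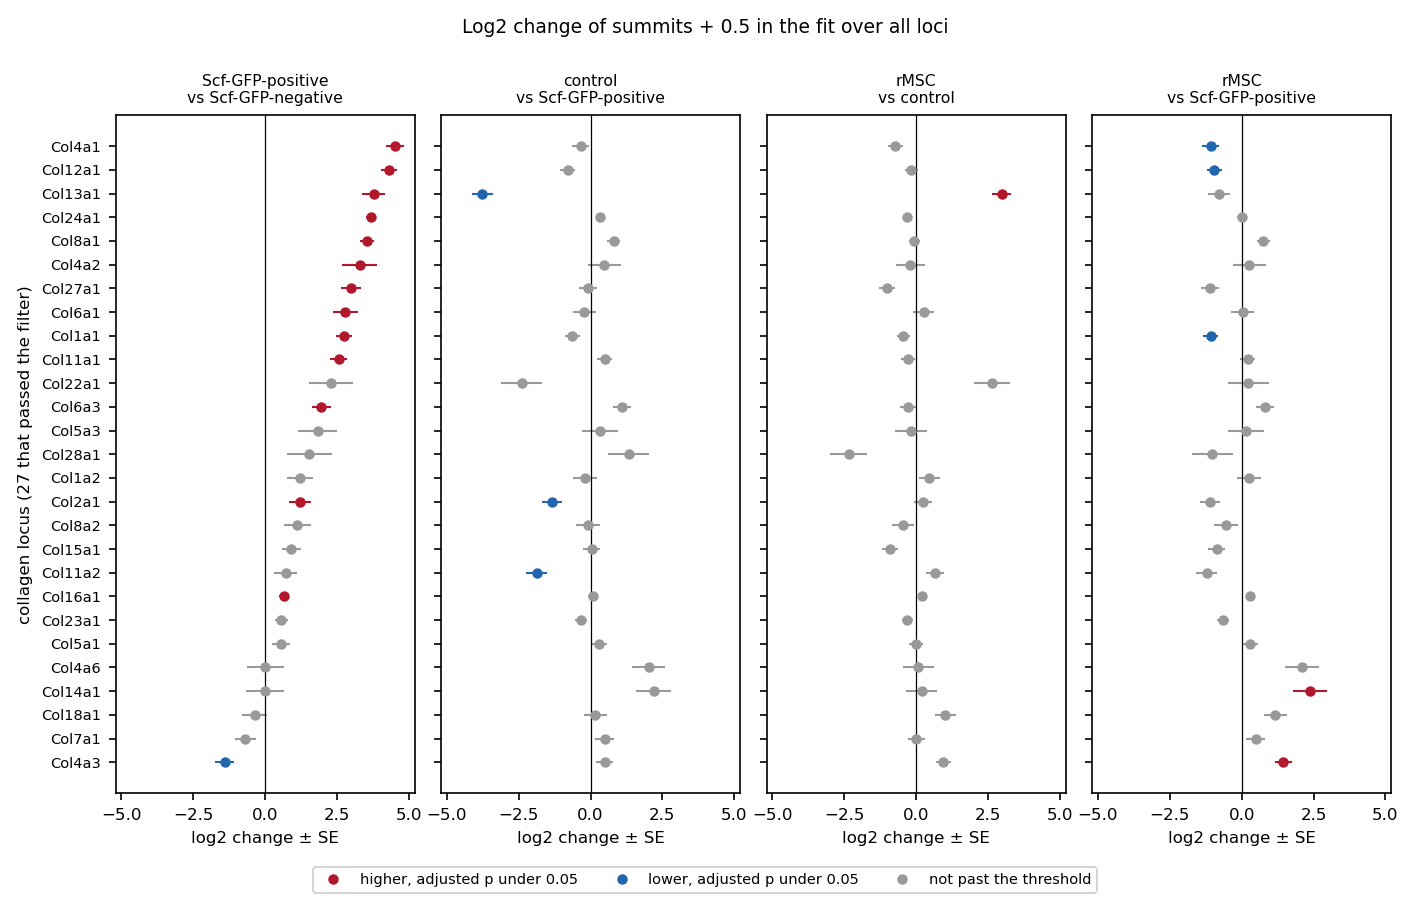
Log2 change of summits + 0.5 with its SE for the 27 collagen loci that passed the filter, in 4 comparisons from the same fit, ordered by the change between Scf-GFP-positive and Scf-GFP-negative stroma. Red and blue points passed an adjusted p of 0.05. Most points in the left panel lie right of 0, and in the other panels few are coloured. Comparisons that share a group share its libraries.

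Control cultures had about the family total of Scf-GFP-positive stroma and fewer summits at particular loci. Osteoblast markers summed to 13 to 18 summits in control cultures against 54 and 54 in Scf-GFP-positive libraries, and to 19 to 23 in rMSC, and their part in the results was not tested. Against Scf-GFP-positive stroma, control cultures were lower at 3 of the 27 tested collagen loci, where 6.73% of all tested loci were lower. None was higher by limma, where 6.24% of all tested loci were, and other settings called 0 to 4. At an unadjusted p under 0.05, 4 of the 27 were higher and 6 lower, with no share of all loci given at that threshold. The median log2 change was 0.08 over the 27 loci and 0 over all tested loci. Col13a1 had 0 summits in all 3 control cultures, against 5 and 8 in Scf-GFP-positive libraries (limma adjusted p = 0.00155). No control library reached the Scf-GFP-positive range. The full deposited lists held 1, 2 and 3 summits at Col13a1 in control cultures, none of them at the start, against 8 and 14 in Scf-GFP-positive libraries (log2 -2.23, limma adjusted p = 0.0431). Col2a1 had 2, 1 and 1 summits in control cultures, against 4 and 4 in Scf-GFP-positive libraries (log2 -1.34 ± 0.35, limma adjusted p = 0.045). Col11a2, a cartilage fibril chain, had 1 in each control culture, against 5 and 5 in Scf-GFP-positive libraries (log2 -1.87 ± 0.36, limma adjusted p = 0.019). The single control summit lay in a region at the starts of the neighbours Rxrb and Slc39a7, open in all 10 libraries. The Col2a1 call was lost without control replicate 2 (adjusted p = 0.118) or 3 (0.114) and with the replicate number as a block (0.0657). It was also lost with no filter, with only the 2 groups in the fit and with all deposited peaks. In those full lists Col2a1 had 2, 5 and 4 summits in control cultures against 4 and 4 in Scf-GFP-positive libraries, so the groups overlapped. The Col11a2 call was lost under the block (0.0521) and without any 1 library of either group, at 0.0533, 0.0552 and 0.0521 without control replicates 1, 2 and 3 and at 0.0873 and 0.0827 without Scf-GFP-positive replicates 1 and 2.

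The loci with the lowest p among those higher in control cultures belonged to several classes. Col6a3 had 4, 3 and 4 summits in control cultures against 1 and 2 in Scf-GFP-positive libraries (log2 1.10 ± 0.30, limma adjusted p = 0.0543). Col14a1, a fibril-associated collagen of tendon and skin, had 5, 4 and 2 against 1 and 0 (log2 2.19 ± 0.61, limma adjusted p = 0.0544). Col8a1 had 10, 10 and 9 against 7 and 4 (log2 0.81 ± 0.22, limma adjusted p = 0.0553). None of these passed, although the groups did not overlap at any of them. Col3a1, which encodes the type III fibril collagen of soft tissue, fell below the filter and was not tested. It had 4 summits in each control culture, against 1 and 2 in Scf-GFP-positive libraries and 0 and 0 in Scf-GFP-negative ones.

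Col13a1 was the single collagen locus that passed between rMSC and control cultures. It had 2, 4 and 5 summits in rMSC and 0 in all 3 control cultures (limma adjusted p = 0.00629). That is 1 of the 27 tested loci higher, where 1.98% of all tested loci were, so a single locus of 27 is near the background. None of the 27 was lower by limma, where 1.42% of all tested loci were, and other settings called 0 to 3. At an unadjusted p under 0.05, 4 of the 27 were higher and 4 lower, with no share of all loci given at that threshold. The median log2 change was -0.06 over the 27 loci and 0 over all tested loci. The Col13a1 call held without any 1 library of either culture and was lost with all deposited peaks or with a −log10 q of at least 5. The full deposited lists held 5, 9 and 8 summits in rMSC against 1, 2 and 3 in control cultures (log2 1.69, limma adjusted p = 0.146).

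The rMSC peaks at Col13a1 lay mostly at other positions than those of fresh stroma. Overlapping peaks of all libraries were merged into regions, and a region was counted for a group when at least 2 of its libraries had a peak there, which means both libraries of a sorted group and 2 of 3 of a culture. By this count rMSC and Scf-GFP-positive stroma shared 16234 of 36065 rMSC and of 26309 Scf-GFP-positive regions over the genome, and 34.6% and 45.9% over all collagen loci. At Col13a1 rMSC had 5 regions and Scf-GFP-positive stroma had 3, with 0 in common, and Col24a1 also had 0 in common, of 7 and 4. The rMSC regions were chr10:61830703-61831483 in the flank beyond the gene's end, open in all 3 rMSC libraries, and chr10:61838688-61839198, chr10:61877829-61878218, chr10:61944455-61944867 and chr10:61980385-61980859, each open in 2. The Scf-GFP-positive regions were chr10:61890362-61890766, chr10:61898288-61899243 and chr10:61979023-61979490, and the last covers the gene start. One rMSC region, chr10:61838688-61839198, also had a peak in Scf-GFP-positive replicate 2. The rMSC region nearest to the start had its midpoint at position -1514, and no rMSC list had a peak at the start itself. The summit counts of rMSC and Scf-GFP-positive stroma overlapped at Col13a1 while the positions of peaks in the equal-size lists mostly differed. Apart from the start, positions at Col13a1 were not compared in the full lists.

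**Figure D4:**
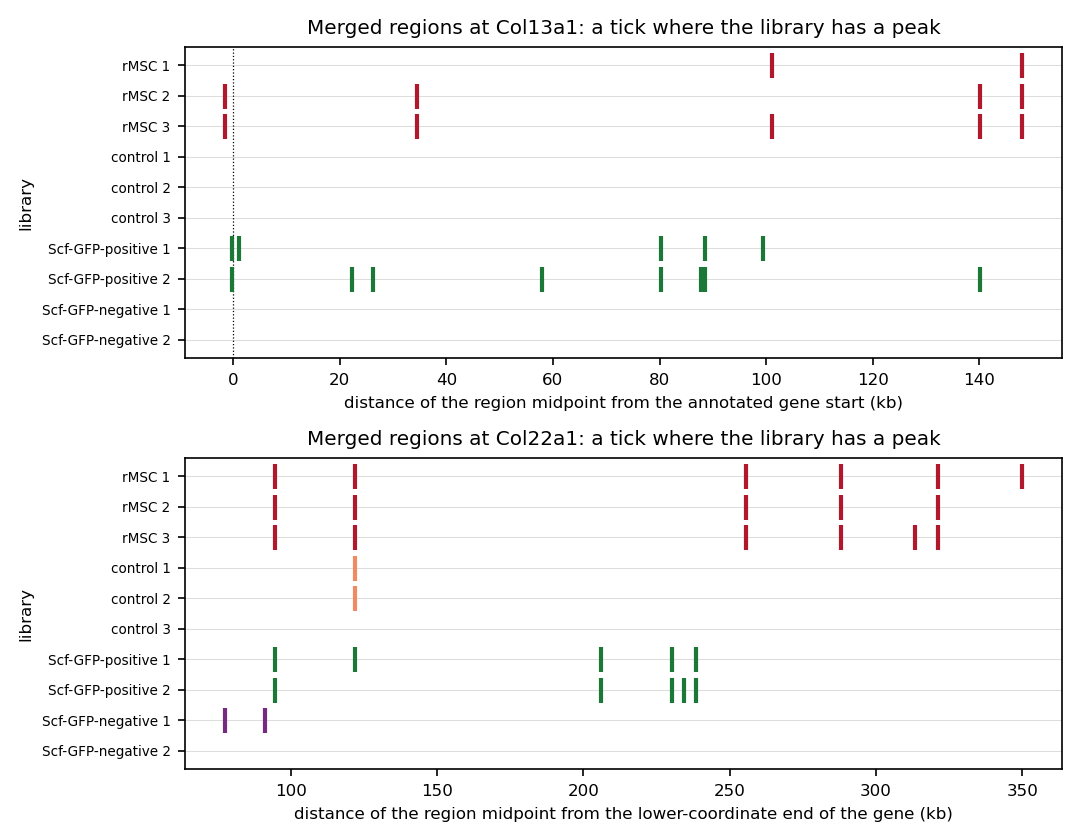
Positions of merged regions at Col13a1 (upper) and Col22a1 (lower) in each library, as distance in kb from the annotated start (Col13a1) or from the lower-coordinate end of the gene (Col22a1). A tick marks a region in which that library has a peak. At Col13a1 the rMSC and Scf-GFP-positive ticks fall mostly at different places and control cultures have none in the equal-size lists, and at Col22a1 control cultures have at most 1.

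Col22a1, a fibril-associated collagen known from muscle-tendon junctions, showed a like picture without passing the test. It had 7, 5 and 6 summits in rMSC, against 1, 1 and 0 in control cultures (log2 2.63 ± 0.63, limma adjusted p = 0.0717). Scf-GFP-positive libraries had 5 and 5 summits there and Scf-GFP-negative libraries 2 and 0. The rMSC libraries overlapped with the Scf-GFP-positive ones and lay above all control cultures. Of 5 rMSC and 4 Scf-GFP-positive regions at Col22a1, 1 was shared, chr15:71889481-71891152, which is 20.0% of the rMSC and 25.0% of the Scf-GFP-positive regions there, set against the 34.6% and 45.9% over all collagen loci. The regions chr15:72051211-72051883, chr15:72083650-72084103 and chr15:72116423-72117305 were open in all 3 rMSC libraries and no other library, while chr15:72001496-72002078, chr15:72025679-72026446 and chr15:72033809-72034754 were open in both Scf-GFP-positive libraries and no other. Col14a1 had the same number of regions in either culture, mostly at other positions. It had 4 summits in each rMSC library and 5, 4 and 2 in control cultures, and its 4 rMSC and 4 control regions had 0 in common. The control region chr15:55379863-55380420 also had a peak in rMSC replicate 2. Positions at Col14a1 were not compared in the full lists. Over all collagen loci these cultures shared 57.7% of the rMSC and 55.6% of the control regions, and over the genome 67.6% and 68.2%.

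Other loci had fewer summits in rMSC than in control cultures and did not pass. Col27a1 had 3, 7 and 6 summits in rMSC against 11, 11 and 10 in control cultures (log2 -1.01 ± 0.27, limma adjusted p = 0.095). Col28a1, a collagen known from peripheral nerve, had 1, 0 and 2 against 4, 8 and 6 (log2 -2.35 ± 0.64, limma adjusted p = 0.0978). Col15a1, a multiplexin at the rim of basement membranes, had 3, 4 and 3 against 7, 7 and 6 (log2 -0.91 ± 0.27, limma adjusted p = 0.125). In the equal-size lists the rMSC libraries lay below the control cultures without overlap at all 3 loci, and the differences did not pass the adjusted threshold. In the full deposited lists, which differ in length, Col27a1 overlapped, at 13, 13 and 15 in rMSC against 13, 15 and 17 in control cultures. Col15a1 overlapped there too, at 6, 5 and 10 against 8, 13 and 14. Col28a1 stayed apart, at 3, 1 and 2 against 7, 11 and 8. Col4a3 had the opposite sign, at 3, 5 and 3 summits in rMSC against 2, 1 and 2 in control cultures (log2 0.95 ± 0.26, limma adjusted p = 0.103). Col18a1, the multiplexin from which endostatin is cut, shared that sign, and neither passed. It had 10, 8 and 6 summits in rMSC against 3, 4 and 4 in control cultures (log2 1.01 ± 0.36, limma adjusted p = 0.184). Its start region, open in both Scf-GFP-positive libraries and 2 control cultures, had no peak in any equal-size rMSC list, and a start peak was present in rMSC replicates 2 and 3 of the full lists. The untested Col3a1 had 0, 2 and 0 summits in rMSC, against 4 in each control culture, and 2, 5 and 2 against 6, 13 and 9 in the full lists. Its 4 control regions included the gene start at chr1:45311343-45311883 and a downstream region at chr1:45355841-45356495. Each was open in all 3 control cultures and in no other equal-size list. In the full lists rMSC replicate 2 also had a Col3a1 start peak.

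Compared with Scf-GFP-positive stroma, rMSC was higher at 2 of the 27 tested loci, where 7.56% of all tested loci were, and lower at 3, where 6.81% were. The median log2 change was 0.16 over the 27 loci and 0 over all tested loci. Col14a1 had 4, 4 and 4 summits in rMSC against 1 and 0 in Scf-GFP-positive libraries (log2 2.38 ± 0.61, limma adjusted p = 0.04). Col4a3 had 3, 5 and 3 against 1 and 1 (log2 1.44 ± 0.29, limma adjusted p = 0.0196). Both were without overlap, and Col4a3 had 2, 3 and 2 summits in the gene body itself in rMSC against 0 and 0 in Scf-GFP-positive libraries. Col1a1 had 6, 6 and 5 summits in rMSC against 12 and 13 in Scf-GFP-positive libraries (log2 -1.08 ± 0.25, limma adjusted p = 0.0304). Col4a1 had 6, 4 and 5 against 15 and 8 (log2 -1.08 ± 0.29, limma adjusted p = 0.0498). Col12a1 had 4, 6 and 4 against 8 and 11 (log2 -0.96 ± 0.26, limma adjusted p = 0.0499). In the equal-size lists these 3 loci were lower in every rMSC library than in either Scf-GFP-positive library. In the full deposited lists, which differ in length, the groups overlapped at all 3, with 13, 13 and 9 summits in rMSC against 12 and 19 in Scf-GFP-positive libraries at Col1a1, 12, 7 and 11 against 15 and 11 at Col4a1, and 10, 7 and 12 against 10 and 15 at Col12a1. Col13a1, with 2, 4 and 5 summits in rMSC against 5 and 8, overlapped and did not pass (limma adjusted p = 0.197).

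None of these 5 calls held throughout. With all deposited peaks the 3 lower calls were lost, at a log2 change of -0.38 for Col1a1 (adjusted p = 0.521), -0.38 for Col4a1 (0.552) and -0.36 for Col12a1 (0.654). With the flow cell as a term Col4a1 (adjusted p = 0.0702), Col12a1 (0.0748) and Col14a1 (0.0577) were lost. With the replicate number as a block the adjusted p was 0.0693 for Col4a3, 0.069 for Col4a1, 0.109 for Col12a1, 0.0927 for Col1a1 and 0.0873 for Col14a1. Col14a1 was not called without Scf-GFP-positive replicate 2 (adjusted p = 0.194) or without rMSC replicate 1 (0.0979), 2 (0.0984) or 3 (0.0956). Col4a3 was not called without Scf-GFP-positive replicate 1 (0.0892) or 2 (0.0824). Col1a1 was not called without Scf-GFP-positive replicate 1 (0.106) or 2 (0.129) or rMSC replicate 1 (0.0732), 2 (0.0721) or 3 (0.0855). Col4a1 was not called without Scf-GFP-positive replicate 1 (0.233) or rMSC replicate 1 (0.0755), 2 (0.128) or 3 (0.109). Col12a1 was not called without Scf-GFP-positive replicate 1 (0.0889) or 2 (0.219) or rMSC replicate 1 (0.127) or 3 (0.126).

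Some loci open in rMSC, control cultures and Scf-GFP-positive stroma passed no comparison among these 3 groups. Col24a1 had 6 summits in each rMSC library, 9, 7 and 7 in control cultures and 5 and 7 in Scf-GFP-positive libraries. Col4a2 had 14, 11 and 13 in rMSC, 13, 15 and 16 in control cultures and 12 and 9 in Scf-GFP-positive libraries. Col6a1 had 6, 5 and 6 in rMSC, 4, 5 and 5 in control cultures and 5 and 6 in Scf-GFP-positive libraries. The ranges of these 3 loci touched or overlapped between rMSC and Scf-GFP-positive stroma, and an equal number did not mean equal positions, since Col24a1 shared 0 regions between rMSC and Scf-GFP-positive stroma. Col5a1, whose chain sets fibril width, had 5, 8 and 7 in rMSC, 8, 6 and 6 in control cultures, 7 and 4 in Scf-GFP-positive and 4 and 3 in Scf-GFP-negative libraries. Col5a3 had 3, 4 and 5 in rMSC, 5, 3 and 6 in control cultures, 4 and 3 in Scf-GFP-positive and 2 and 0 in Scf-GFP-negative libraries. Col11a1 had 2, 4 and 3 in rMSC and 4, 4 and 3 in control cultures. All 3 are fibrillar chains with a start peak outside Scf-GFP-negative stroma, and Col5a1 and Col5a3 passed in no comparison. Col16a1 had 7, 7 and 5 in rMSC and 5, 5 and 6 in control cultures. Col23a1, a transmembrane collagen, had 4, 4 and 3 in rMSC, 5, 4 and 5 in control cultures, 6 and 6 in Scf-GFP-positive and 5 and 3 in Scf-GFP-negative libraries. Col8a2 had 3, 2 and 4 in rMSC, 4, 3 and 6 in control cultures, 4 and 5 in Scf-GFP-positive and 3 and 1 in Scf-GFP-negative libraries. Col8a2 and Col23a1 each hold a region at a neighbour's start, Adprhl2 and Phykpl, that was open in all 10 libraries.

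The merged regions placed these counts on the genome. Of 117618 regions in all libraries, 419 lay in collagen loci. Both Scf-GFP-positive and neither Scf-GFP-negative library was open at 81 of them (19.3%, against 9.92% of all regions), and the reverse held at 4 (0.955%, against 4.64%). The 81 became 128 without Scf-GFP-positive replicate 1, and the 4 became 21 without Scf-GFP-negative replicate 1 and 39 without Scf-GFP-negative replicate 2. Regions open in all 10 libraries were 10 of the 419 (2.39%, against 8.03% of all regions), and several of these lie at a neighbour's start, such as Mff beside Col4a3 and Rxrb beside Col11a2. Collagen regions open in every library outside Scf-GFP-negative stroma and in neither of its libraries were 22 of 419 (5.25%, against 2.22%). Of regions open in at least 2 libraries of a group, Scf-GFP-positive stroma shared 11 of its 98 collagen regions (11.2%) with Scf-GFP-negative stroma, which shared 73.3% of its 15. Over all regions the shares were 47.8% of 26309 and 61.1% of 20566.

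Between cultures and fresh stroma the collagen shares lay nearer to the background. Every control culture and neither Scf-GFP-positive library were open at 37 collagen regions (8.83%, against 7.6% of all regions), and the reverse held at 39 (9.31%, against 6.37%). All rMSC and no control libraries were open at 19 (4.53%, against 3.3%), and the reverse held at 20 (4.77%, against 3.73%). All rMSC and no Scf-GFP-positive libraries were open at 39 (9.31%, against 8.38%), and the reverse held at 46 (11.0%, against 7.28%). Regions open in all 3 rMSC libraries and both Scf-GFP-positive libraries and in no other library were 4 of 419, against 0.219% of all regions. They lay at Col18a1, Col22a1, Col2a1 and Col8a1, 1 each. The matching pattern of control cultures and Scf-GFP-positive stroma alone was 5 of 419, against 0.712% of all regions, at Col8a1, Col24a1, Col28a1, Col4a1 and Col12a1. At Col8a1, with 8, 9 and 11 summits in rMSC, 10, 10 and 9 in control cultures and 7 and 4 in Scf-GFP-positive libraries, 3 regions were open in the 6 cultures alone.

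**Figure D5:**
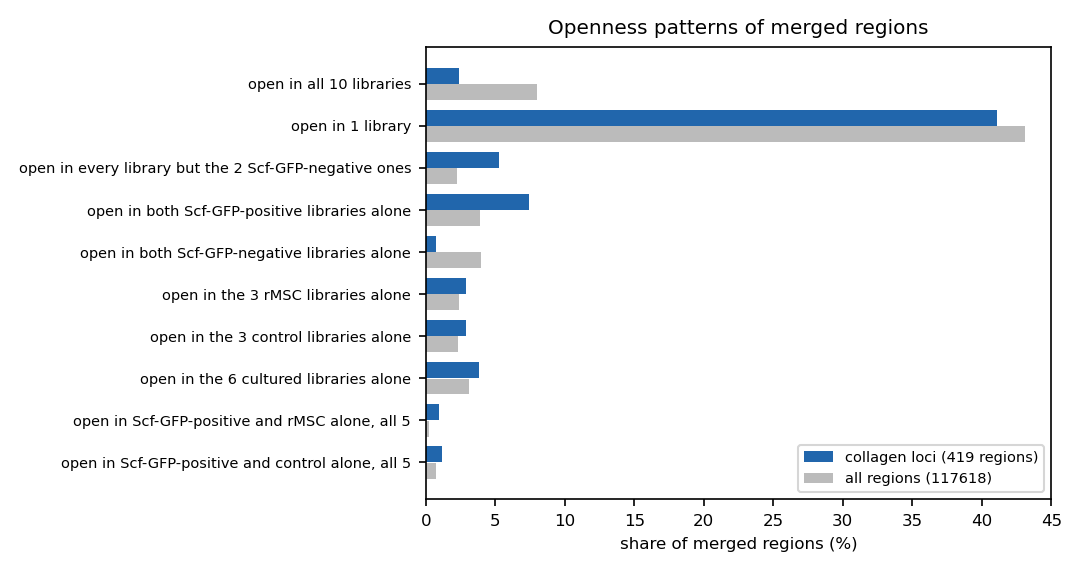
Share of merged regions, in percent, with each pattern of open libraries, for the 419 regions in collagen loci (blue) and all 117618 regions (grey). Collagen regions are less often open in all 10 libraries (2.39% against 8.03%) and more often open in the Scf-GFP-positive libraries alone (7.40% against 3.92%). No test was made of these shares.

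The type IV collagens stand in 3 head-to-head pairs with neighbouring starts, and the pairs differed. Col4a1 and Col4a2 had start peaks in every rMSC, control and Scf-GFP-positive library. Col4a3 and Col4a4, chains of specialised basement membranes, had 1 summit in common over all libraries, and Col4a4 had 0 or 1 summit in each library. Col4a5 and Col4a6, on chromosome X, shared 4 summits. Col4a5 had 1, 2 and 2 summits in rMSC, 1, 0 and 0 in control cultures, 0 in both Scf-GFP-positive libraries and 1 and 0 in Scf-GFP-negative ones. Among the equal-size lists, its start region chrX:141475198-141475773 was open in the 3 rMSC lists alone. In the full lists Scf-GFP-positive replicate 2 and control replicates 2 and 3 also had a Col4a5 start peak. Col4a6 had 4, 4 and 2 in rMSC, 3, 3 and 3 in control cultures, 0 and 1 in Scf-GFP-positive and 1 and 0 in Scf-GFP-negative libraries. Neither its difference in control cultures (log2 2.01 ± 0.59, limma adjusted p = 0.0646) nor in rMSC (log2 2.09 ± 0.59, limma adjusted p = 0.0537) against Scf-GFP-positive stroma passed. Of 4 shared Col4a5 and Col4a6 summits, 3 were the rMSC peaks at the Col4a5 start.

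The 14 loci under the filter of 2 summits were not tested and are described by their counts. Col25a1, a transmembrane collagen known from neurons and muscle, had 0 summits in all 6 cultures, 6 and 5 in Scf-GFP-positive and 1 and 1 in Scf-GFP-negative libraries. In the full deposited lists it had 0 in every rMSC library, 1, 4 and 4 in control cultures, 7 and 8 in Scf-GFP-positive and 2 and 1 in Scf-GFP-negative libraries. The zero in control cultures thus holds for the equal-size lists alone, and the Scf-GFP-positive libraries lay above all others in either set. Col10a1, the collagen of hypertrophic cartilage, had 2 summits in each rMSC library, 1, 0 and 0 in control cultures and 0 in all 4 sorted libraries. It lies inside Nt5dc1 on the annotation, so its peaks cannot be assigned to 1 gene. Col5a2 had 3, 2 and 1 summits in rMSC, 4, 3 and 3 in control cultures, 1 and 1 in Scf-GFP-positive and 0 and 0 in Scf-GFP-negative libraries. Col6a2 had 1 in each rMSC and control library, 2 and 1 in Scf-GFP-positive and 0 and 0 in Scf-GFP-negative libraries. The cartilage collagens Col9a1, Col9a2 and Col9a3, the hemidesmosome collagen Col17a1, and Col4a4, Col19a1, Col20a1 and Col26a1 had 0 to 3 summits in any library.

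Many of the genes that process and bind collagen also differed between the sorted groups. Among modifying enzymes and chaperones, 18 of 21 were tested, 6 were higher and 2 lower in Scf-GFP-positive than in Scf-GFP-negative stroma, with a median log2 change of 0. Over all tested loci 13.8% were higher and 17.5% lower, with a median of -0.23. Serpinh1, the collagen chaperone HSP47, had 6 and 4 summits in Scf-GFP-positive libraries and 0 in both Scf-GFP-negative ones (limma adjusted p = 9.52e-05). Plod2, the lysyl hydroxylase of collagen telopeptides, had 12 and 13 against 1 and 1 (log2 3.11 ± 0.16, limma adjusted p = 2.92e-05). Among processing and crosslinking enzymes, 10 of 14 were tested, 6 were higher and 0 lower, with a median log2 change of 2.34. Adamts2, the procollagen N-proteinase, had 12 and 10 summits in Scf-GFP-positive libraries, and Lox, which crosslinks fibrils, had 6 and 3, while both had 0 in each Scf-GFP-negative library (limma adjusted p = 8.54e-06 for Adamts2 and 0.00027 for Lox). Of collagen receptors 8 of 11 were tested, 4 were higher and 0 lower (median log2 1.09), and Ddr2, a receptor kinase for fibrillar collagen, had 13 and 13 summits against 2 and 2 (log2 2.43 ± 0.13, limma adjusted p = 3.18e-05). Of fibril partners 7 of 14 were tested, and all 7 were higher (median log2 1.58). That median is the value of Thbs2, with 1 and 1 summits against 0 and 0, and rests on the value added before the logarithm. Thbs2 passed the filter through the cultures, where it had 3 or 4 summits. Loci of these lists passed the filter partly through groups in which they are high, so the shares do not describe whole lists. Of degrading proteases 2 of 8 were tested and 1 was higher, Mmp2, a gelatinase, with 6 and 5 summits in Scf-GFP-positive libraries and 0 in both Scf-GFP-negative ones (limma adjusted p = 1.55e-05).

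Between cultures and fresh stroma the same lists differed at a few loci. Control cultures were higher than Scf-GFP-positive stroma at 1 modifying enzyme, 0 processing enzymes, 0 receptors, 3 fibril partners and 1 protease, and lower at 3, 1, 1, 0 and 0 of these lists. That is 5 higher and 5 lower of 45 tested genes, beside 6.24% higher and 6.73% lower over all tested loci. P4ha3, a prolyl hydroxylase subunit, had 5, 4 and 5 summits in control cultures and 0 in both Scf-GFP-positive libraries (limma adjusted p = 0.000246). Matn2, a matrilin that links matrix filaments, had 16, 15 and 12 against 5 and 3 (log2 1.75 ± 0.29, limma adjusted p = 0.0124). Plod2 ran the other way, at 8, 6 and 7 against 12 and 13 (log2 -0.80 ± 0.14, limma adjusted p = 0.0153). Between rMSC and control cultures limma called 0 list members higher, and 1 modifying enzyme, 1 processing enzyme, 1 receptor and 1 protease were lower. These are 0 and 4 of 45 tested genes, beside 1.98% higher and 1.42% lower over all tested loci. At an unadjusted p under 0.05, 0 of the 45 were higher and 9 lower. P4ha3 had 2 summits in each rMSC library against 5, 4 and 5 in control cultures (log2 -1.04 ± 0.17, limma adjusted p = 0.0249). Bmp1, the procollagen C-proteinase, had 3, 3 and 4 against 7, 7 and 6 (log2 -0.91 ± 0.14, limma adjusted p = 0.0205). Ddr2 had 9, 9 and 10 against 12, 14 and 15 (log2 -0.52 ± 0.10, limma adjusted p = 0.0419), and Mmp2 had 6, 5 and 5 against 10, 9 and 8 (log2 -0.70 ± 0.13, limma adjusted p = 0.0331). The rMSC libraries lay below every control culture at these 4 loci. Against Scf-GFP-positive stroma, rMSC was higher at P4ha3, Thbs2 and Matn2 and lower at Plod2, Colgalt1, Tgm2, Bmp1, Adgrg1, Ddr2 and Itga1, which are 3 and 7 of 45, beside 7.56% and 6.81% over all tested loci.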

How the data were processed

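ATAC-seq peaks of 10 libraries in 4 groups, assigned by their labels, were analysed from the deposited peak lists. Reads were aligned with BWA to mm10 and peaks called with MACS2, per the submitters' processing notes, with versions and settings not given in the sources used here. Peaks were called on each library alone, per the peak names in the deposited files. The authors' caller gave each peak a −log10 p and a −log10 q, a fold (ratio) of its summit over background and a score, which in the deposited files is 10 times the −log10 q without decimals. The −log10 p ranked peaks within a list, the fold described start peaks within a list, and the score was not used further.

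On chromosomes 1 to 19 and X, each list was cut to its 39912 strongest peaks by −log10 p. Peaks tied at the last rank were taken wider first and then at random with a fixed seed, and made up 1.82% to 20.4% of a list. Summits were counted in RefSeq gene bodies with flanks of 10 kb, and log2(summits + 0.5) of loci with a mean of at least 2 was fitted with limma 3.58.1 in R 4.3.3 (trend, all 4 groups in 1 model, 6 residual and 1.54 prior degrees of freedom, Benjamini-Hochberg over all 9148 loci). The fit was tested on simulated data. Depth is unknown, so precision rests on the replicates. Alternatives changed the peak threshold, ties, flank, filter, pseudocount, scaling, measure, samples and blocks.

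The members and lists were chosen with earlier results of these data known. Named genes are members past the threshold, the 6 with most summits per 100 kb, those with a gene-start peak in every library of one group and none of another, and up to 4 passing genes per list. Further members are given by counts.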

Additional observations from a re-analysis of the deposited data

How the results depend on the processing

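Of 23 collagen locus calls in the 4 comparisons, refitted in 426 alternative fits, 329 passed the threshold, 97 fell short in the same direction and 0 reversed. The 7 calls that passed in every alternative that tested them were Col4a1, Col8a1, Col11a1, Col12a1, Col13a1, Col24a1 and Col27a1 between Scf-GFP-positive and Scf-GFP-negative stroma. Same-numbered libraries of different groups did not deviate together (correlation -0.0239 to 0.017 over 13 pairs), so the numbers were not taken to pair the samples, although number 1 is also a flow cell of its own. With a replicate block, 12 loci were higher and 1 lower in Scf-GFP-positive than Scf-GFP-negative stroma, 0 and 1 in control cultures than Scf-GFP-positive stroma, 1 and 0 in rMSC than control cultures, and 0 and 0 in rMSC than Scf-GFP-positive stroma.

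Between Scf-GFP-positive and Scf-GFP-negative stroma the 1 lower locus became 0 with all deposited peaks, a −log10 q of at least 5, a flank of 2 kb, the gene body alone, a filter of 4 summits, only the 2 groups, and flow cell AC99CPACXX alone. For control cultures against Scf-GFP-positive stroma, the 0 higher loci became 4 with a −log10 q of at least 5, with ties broken at random and with covered bases, 3 with equal chromosome totals, 2 with all deposited peaks, a flank of 2 kb and a pseudocount of 1, and 1 with tied peaks left out, no filter, a filter of 4, a common median, only the 2 groups, and flow cell AC99CPACXX alone. The 3 lower loci became 5 with covered bases, 1 with a flank of 2 kb, tied peaks left out, the block, and that flow cell alone, and 0 with a filter of 4. For rMSC against control cultures, the 1 higher locus became 4 with covered bases, 2 with a pseudocount of 1, and 0 with all deposited peaks, tied peaks left out and a filter of 4. The 0 lower loci became 3 with covered bases and 1 with the gene body alone, ties at random, only the 2 groups, and that flow cell alone. For rMSC against Scf-GFP-positive stroma, the 2 higher loci became 6 with all deposited peaks, 5 with covered bases, 4 with equal chromosome totals, 1 with a flank of 2 kb, tied peaks left out, a filter of 4, only the 2 groups, flow cell as a term and that flow cell alone, and 0 with the gene body alone and the block. The 3 lower loci became 1 with all deposited peaks, only the 2 groups and that flow cell alone, and 0 with a −log10 q of at least 5 and the block. The alternatives on tied peaks were chosen after seeing the data. Some drops follow from the filter alone. Under a filter of 4, Col13a1, Col2a1, Col11a2, Col4a3 and Col14a1 were not tested, nor was Col13a1 with tied peaks left out, nor Col4a3 with a flank of 2 kb or the gene body alone. The cause of the other shifts was not tested.

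With all deposited peaks, 66 collagen regions were open in every control and no Scf-GFP-positive library and 75 in every rMSC and no Scf-GFP-positive library. Counts under other settings or with a library left out, here and above, have no share of all loci or regions beside them. The full lists also differ in length between libraries, so such counts are not read as a result about collagen loci. With a −log10 q of at least 5, 24 were open in every Scf-GFP-positive and no control library. Regions open in both Scf-GFP-negative and no Scf-GFP-positive library became 0 with a −log10 q of at least 5 and with a cover of 50%. Collagen genes with a start peak averaged 17.3 in rMSC and 18.0 in control libraries with all deposited peaks. They averaged 16.5 in Scf-GFP-positive and 0.5 in Scf-GFP-negative libraries with a −log10 q of at least 5. In control libraries they averaged 14.3 within 500 bases of the start and 13.0 with a peak over the start base. Leaving out 1 library at a time gave 10 to 16 higher and 0 to 2 lower loci in Scf-GFP-positive against Scf-GFP-negative stroma, 0 to 1 and 0 to 2 in control cultures against Scf-GFP-positive stroma, 1 to 1 and 0 to 0 in rMSC against control cultures, and 1 to 2 and 0 to 2 in rMSC against Scf-GFP-positive stroma. It gave 83 to 128 regions open in Scf-GFP-positive and not Scf-GFP-negative stroma and 4 to 39 for the reverse, 43 to 48 in control cultures and not Scf-GFP-positive stroma and 39 to 77 for the reverse, 43 to 53 in rMSC and not Scf-GFP-positive stroma and 47 to 83 for the reverse, and 20 to 29 in rMSC and not control cultures and 22 to 29 for the reverse. Without read counts, low summit numbers limit every fold given, and 14 loci could not be tested.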
